A study of Mus musculus with 9 samples.

Results

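The proteins of the cytosolic ribosome are described here in cells labelled B.END3, the name of a mouse brain endothelial cell line, after photodynamic intervention (PDT). Members were chosen by gene symbol alone: the symbols that begin with Rpl or Rps and go on with a number, with or without a paralogue letter, plus Rpsa, Rplp0, Rplp1 and Rplp2. Pseudogene symbols ending in -ps and the S6 kinases were left out. The rule found 90 of 54532 listed genes, 54 of the large subunit and 36 of the small subunit, on 19 chromosomes. Of these, 84 had an FPKM (fragments scaled by gene length and library size) of at least 1 in at least 3 libraries and were tested, 50 of the large and 34 of the small subunit.

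RNA sequencing covered 9 libraries, 3 in each of 3 groups. Cells of the control group (Ctrl) are labelled untreated. The other groups received porfimer sodium, a porphyrin photosensitizer that makes reactive oxygen species under red light, at 300 µg/mL for 90 min and then a 635 nm laser at 100 mW/cm2, with a light dose of 10 J/cm2 in Ep1 and 20 J/cm2 in Ep2. All cells are labelled as brain microvessel endothelial cells of strain C57BL/6 and as grown to a monolayer. B.END3 is a line transformed by a viral oncogene, the growth protocol calls it a rat line while the organism field gives mouse, and no group received the photosensitizer or the light alone, so their effects cannot be told apart. The time between light and lysis and the number of cultures behind the libraries are not given in the sources used here, so p-values measure only the spread between these libraries.

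Each ribosome holds a single copy of most ribosomal proteins, the P stalk proteins being the exception, and cells make the proteins of both subunits in matched amounts. Their mRNAs are short, abundant and stable, and most begin with a terminal oligopyrimidine (TOP) tract, a C at the cap followed by a run of pyrimidines. Through this tract, the protein LARP1 and the kinase complex mTORC1 set how many of these mRNAs are translated, a step that RNA levels alone do not show. Several ribosomal proteins also act outside the ribosome, and loss of a single allele of some of their genes causes Diamond-Blackfan anemia.

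Fragments recovered from the FPKM values totalled 16240688 to 19509225 per library. The defining endothelial markers were low in all libraries: 2 of 12 listed markers (Egfl7 and Eng) passed the filter, all 12 together summed to 3.65 to 5.2 FPKM, Emcn and Erg were at 0 in every library, and Pecam1 and Kdr were at 0.0821 to 0.192 and 0.0283 to 0.0537 FPKM in Ctrl. The epithelial markers Krt8, Krt18, Krt19, Epcam and Cdh1 summed to 1029 to 1081 FPKM in Ctrl, 937 to 1041 in Ep1 and 1155 to 1372 in Ep2. Of the 4 epithelial markers that were tested, 3 were higher in Ep2 than in Ctrl (75%, against 23.9% of all tested genes). These were Krt18, Krt19 and Epcam (log2 fold changes 0.37, 0.70 and 0.61). Of the pericyte markers, Des alone passed the filter, and no astrocyte or leukocyte marker did. The low endothelial and high epithelial marker levels go against the endothelial label of the cells, whose identity was not tested. The part of these markers in the results below was not tested.

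The start of the TOP tract lies at the transcription start, so promoter sequences of RefSeq (build GRCm38.p6) were read from 60 bases before to 20 bases from the start, for the 65 members found in that table. A short pyrimidine run was searched as any of 5 words that overlap each other. Windows with the word CTCTTT were counted. The search also took CCTTTC as a word, with CCTTTT as its variant in the last letter. Windows with CTTTCC counted as well, and likewise those with the word CTTTTC. On the coding strand, 31 of 65 members (47.69%) held at least 1 of these words, against 14.31% of 27025 genes with such a window. On the other strand the shares were 10.77% and 13.38%. The words were found in 43.9% of large subunit and 54.17% of small subunit members. Of the members that were lower in Ep2 than in Ctrl, 11 of 29 (37.93%) held a word, and of the tested members that were not lower, 19 of 32 (59.38%) did. A match is a description of letters, not a mapped start or a functional tract, and windows without a match may still begin with pyrimidines.

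Windows of 8 members are printed 5′ to 3′ on the coding strand, with the matched word in capitals, to show the tract beside the members on which the results turn. The first 5 hold a word, and the last 3 hold none.
Rps6: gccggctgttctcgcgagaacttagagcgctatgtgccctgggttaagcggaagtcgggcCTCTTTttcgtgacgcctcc
Rps27: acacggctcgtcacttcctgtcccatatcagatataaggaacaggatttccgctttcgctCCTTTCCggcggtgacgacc
Rpl38: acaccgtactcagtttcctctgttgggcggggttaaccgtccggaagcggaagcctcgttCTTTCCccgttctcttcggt
Rplp2: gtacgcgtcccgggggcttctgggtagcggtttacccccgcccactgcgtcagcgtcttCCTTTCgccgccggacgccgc
Rpl5: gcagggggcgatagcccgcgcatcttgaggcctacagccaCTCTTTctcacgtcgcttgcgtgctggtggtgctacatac
Rps28: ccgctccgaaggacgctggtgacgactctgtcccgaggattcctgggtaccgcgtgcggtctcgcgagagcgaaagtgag
Rpl41: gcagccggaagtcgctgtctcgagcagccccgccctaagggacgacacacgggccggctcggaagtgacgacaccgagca
Rpl9: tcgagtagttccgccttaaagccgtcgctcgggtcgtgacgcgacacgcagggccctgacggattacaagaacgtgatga
The window of Rps6 is chr4:86857348-86857427, minus strand. That of Rps27 is chr3:90213629-90213708, minus strand, that of Rpl38 chr11:114668520-114668599, plus strand, and that of Rplp2 chr7:141447591-141447670, plus strand. Those of Rpl5, Rps28, Rpl41 and Rpl9 are chr5:107900468-107900547, plus strand, chr17:33824543-33824622, minus strand, chr10:128549149-128549228, minus strand and chr5:65391412-65391491, minus strand. Each window covers the 60 bases upstream of the RefSeq start, which can differ from the gene end listed in the data, and the first 20 transcribed bases. In Rps6, Rpl38 and Rps27 the word follows the RefSeq start at once, in Rplp2 it straddles the start, and in Rpl5 it lies within the upstream bases.

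Ribosomal protein mRNAs were among the most abundant of the cells. The 84 tested members had a median Ctrl mean of 383 FPKM (large subunit 364, small subunit 486), while that of all 11727 tested genes was 7.84 FPKM. Of the 90 members, 73 lay above 100 FPKM, and 39 of the 100 genes with the highest Ctrl means were members. The highest level was that of Rplp1, a protein of the acidic stalk, at 3535 ± 70.5 FPKM in Ctrl (SD, n = 3). It was followed by Rplp0, the base of the same stalk, at 2029 ± 66.1 and by Rps3a1, a protein of the small subunit platform, at 1797 ± 69.5 FPKM. Rpl36 followed at 1685 ± 129 and Rpl8, which lies near the peptidyl transferase center, at 1532 ± 48.2 FPKM. The SDs of Rps3a1 and Rpl36 overlapped, and so did those of Rpl36 and Rpl8. FPKM divides fragments by the listed gene length, which was 499 bases for Rplp1 and 1659 bases for Rplp0. In fragments the order was the other way, with 45654 to 68023 per library for Rplp0 and 20833 to 35233 for Rplp1. The order of levels, the subunit medians and the ratio of the subunits below therefore rest on the listed lengths.

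At the low end, 5 tested members had Ctrl means under 10 FPKM: Rpl24 at 1.84 ± 0.475, Rpl36al at 2.27 ± 0.235, Rps3a3 at 5.66 ± 2.85, Rps10 at 6.79 ± 0.984 and Rps3a2 at 9.11 ± 3.81 FPKM. Rpl24, Rpl36al and Rps10 overlap a second gene model on the same strand (Gm28037, Gm49383 and RPS10-NUDT3). Gm28037 and Gm49383 were listed at 0 in every library, and how fragments in shared exons were counted is not given in the sources used here. Their low levels are therefore uncertain. The 6 untested members were the paralogues Rpl10l and Rps12l1, at 0 in all 9 libraries, where the limit set by a count of 0 is 3 fragments, and Rpl39l, Rpl3l, Rps4l and Rpl32l, with 0 to 6 fragments per library. Such limits cover counting error only. Most ribosomal protein genes have processed pseudogenes that are nearly identical to the mRNA, and fragments that match several places may have been counted for one or the other, so every level below may be incomplete.

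As a share of the summed FPKM of all genes, members took 13.5%, 14.1% and 13.7% in the Ctrl libraries (13.8% ± 0.298, SD, n = 3). They took 12.2%, 12.8% and 12.5% in Ep1 (12.5% ± 0.281) and 13.1%, 12.6% and 11.9% in Ep2 (12.6% ± 0.604). All 6 treated libraries lay below all Ctrl libraries, while Ep1 and Ep2 overlapped. The large subunit took 8.46% ± 0.200 in Ctrl, 7.68% ± 0.168 in Ep1 and 7.58% ± 0.475 in Ep2. The small subunit took 5.30% ± 0.141, 4.85% ± 0.116 and 4.97% ± 0.131. In bulk libraries, a change in the cells that were sampled and a change in the RNA of each cell cannot be told apart, and a share also moves when other genes move. Mitochondrial transcripts took 4.95% to 5.18% of the summed FPKM in Ctrl, 5.26% to 5.55% in Ep1 and 5.35% to 6.65% in Ep2. Without them the share of members was 14.5% ± 0.308, 13.2% ± 0.292 and 13.4% ± 0.551, and the order of Ctrl and treated groups was as before.

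The ratio of summed large to summed small subunit FPKM was 1.63, 1.60 and 1.55 in Ctrl, 1.58, 1.57 and 1.59 in Ep1, and 1.58, 1.52 and 1.47 in Ep2. The Ep1 ratios lay within the range of the Ctrl ratios. In Ep2, 1 of 3 ratios lay within that range and the lowest was that of replicate 3. The Ctrl mean was 1.60 ± 0.0401 (SD, n = 3), that of Ep1 1.58 ± 0.0115 and that of Ep2 1.52 ± 0.0569. As each group had 3 libraries, an exact permutation test of these shares or ratios could not give a p below 0.1, and none was made.

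**Figure D1:**
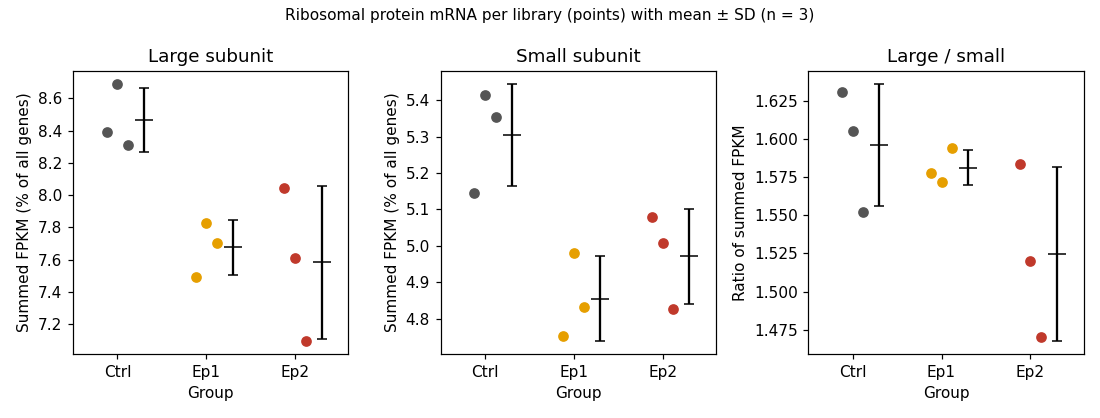
Summed FPKM of large and small subunit members as a percent of the summed FPKM of all genes, and the ratio of both sums, for each of 9 libraries (points) with mean and SD of each group (n = 3, bars). The large subunit points of all treated libraries lie below the Ctrl points, and the ratio falls to 1.47 in 1 Ep2 library; the axes do not start at 0.

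Next, the higher light dose was compared with Ctrl. At 20 J/cm2, 43 of 84 tested members were down-regulated (51.2%, against 29.3% of all tested genes) and 3 were up-regulated (3.57%, against 23.9%), at an adjusted p-value below 0.05. Calls in either direction numbered 46 of 84, where 53.2% of all tested genes were called, so members differed from the background in the direction of the calls more than in their number. The changes were small. The median log2 fold change was -0.19 over members, a median change in FPKM of -12.5%, and -0.03 over all tested genes. In 47 members all Ep2 libraries lay below all Ctrl libraries (32.7% of all tested genes did so), and in 4 all lay above (27.0%). With the fold threshold of the study for DEGs (absolute log2 fold change above 0.6), 3 members passed, all lower (5.87% of all tested genes), and 0 passed as higher (3.3%), where 9.17% of all tested genes passed in either direction.

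The counts of the subunits were similar. Of 50 large subunit members, 25 fell and 2 rose, with a median log2 fold change of -0.22, and of 34 small subunit members, 18 fell and 1 rose, with a median of -0.16. The interquartile range of log2 fold changes ran from -0.32 to -0.06 in the large and from -0.31 to 0.01 in the small subunit. The difference between the subunits was not tested. The count depended on how the length and base composition of genes were handled. With a trend on gene length removed from each library, 32 members (38.1%) were lower, against 26.6% of all genes, and 11 (13.1%) were higher, against 26.4%. With trends on both the length and the GC content of the mRNA removed, an alternative chosen after seeing the data, 26 members (31.0%) were lower, against 26.2% of all genes, and 14 (16.7%) were higher, against 26.4%. Under these fits the large subunit median was -0.13 and -0.10 and the small subunit median -0.07 and -0.06.

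**Figure D2:**
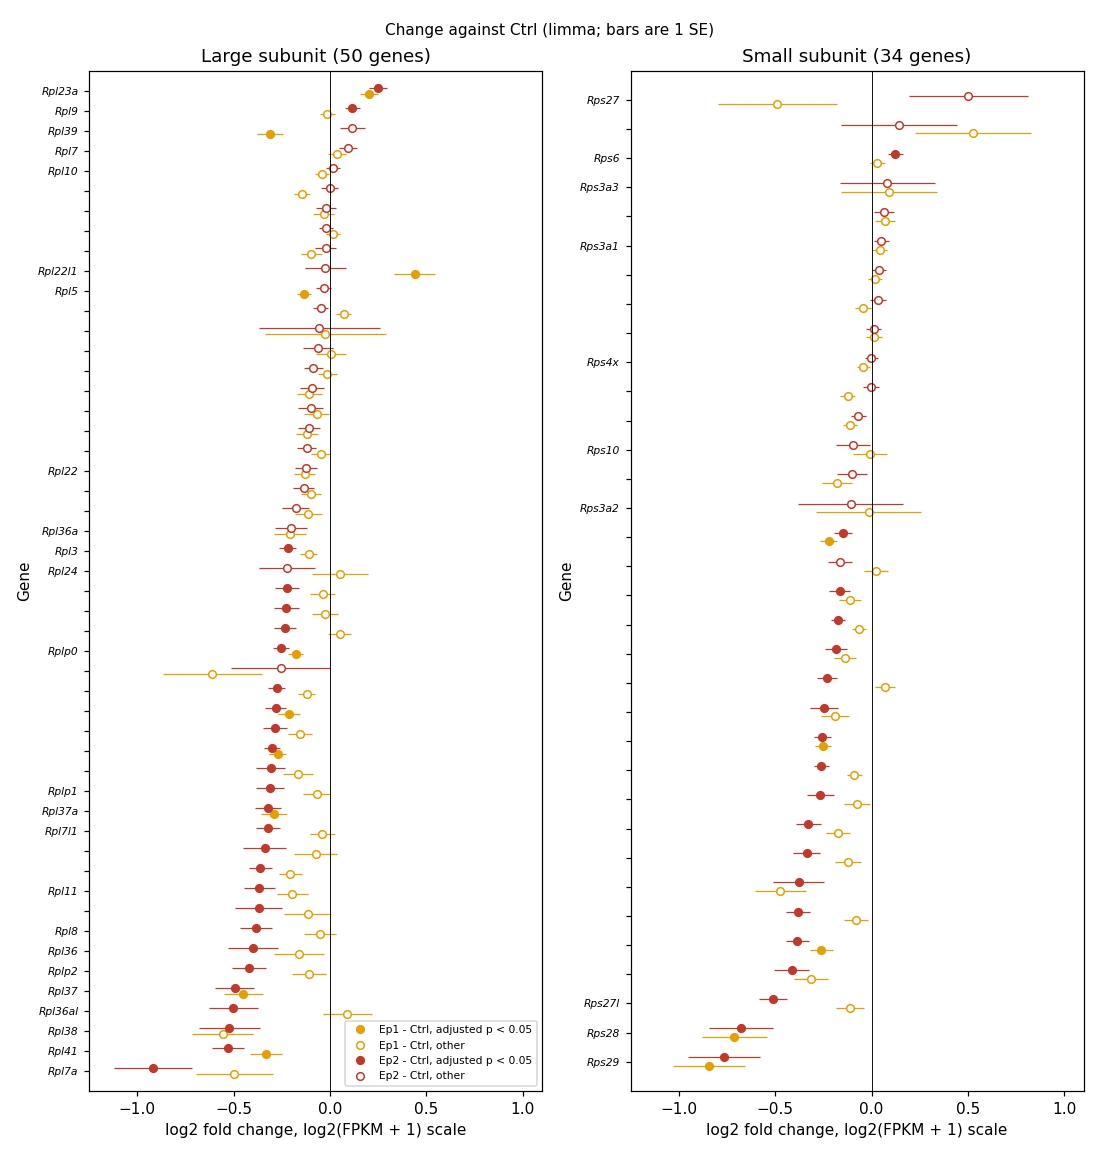
Log2 fold changes against Ctrl of the 84 tested members in Ep1 (orange) and Ep2 (red), large subunit on the left and small subunit on the right, ordered by the change in Ep2, with the names of the members chosen by the rule for named genes. Bars are 1 SE and filled points have an adjusted p-value below 0.05; most points lie left of 0, and 3 members are filled to the right in Ep2. Both comparisons share the Ctrl libraries.

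Among called members with a mean of at least 10 FPKM, the largest falls at 20 J/cm2 were those of Rpl7a, Rps29, Rps28, Rpl41, Rpl38 and Rps27l. They are in the order of their log2 fold changes. In percent of FPKM, Rpl36al, which lies below that mean, fell by more than Rps29 (-41.5% and -40.9%). Rps29 (ENSMUSG00000034892, chr12:69157722-69159186, minus strand, GRCm38), a zinc-binding protein of the small subunit head, had 627, 671 and 554 FPKM in Ctrl and 427, 364 and 304 in Ep2. All Ep2 libraries lay below all Ctrl libraries (log2 fold change -0.77 ± 0.19, adjusted p = 0.00939). Rps28 (ENSMUSG00000067288, chr17:33819027-33824562, minus strand), which lies at the mRNA exit of the small subunit, had 335, 369.8 and 311 FPKM in Ctrl and 254, 217 and 169.8 in Ep2, again without overlap (log2 fold change -0.68 ± 0.17, adjusted p = 0.00955).

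Rpl7a (ENSMUSG00000062647, chr2:26910764-26913318, plus strand), an RNA-binding protein of the large subunit, had 266, 197 and 181 FPKM in Ctrl, 126, 182 and 147 in Ep1 and 112, 91.8 and 136 in Ep2. The Ep2 libraries lay below the Ctrl libraries, which themselves varied widely (log2 fold change -0.92 ± 0.20, adjusted p = 0.00581). Its gene hosts 3 small RNA models on the same strand, the highest with a mean of 4.52 FPKM. Rpl41 (ENSMUSG00000093674, chr10:128548114-128549305, minus strand), the smallest ribosomal protein, had 1259, 1326 and 1223 FPKM in Ctrl and 961, 878 and 802 in Ep2. The groups were well apart (log2 fold change -0.53 ± 0.08, adjusted p = 0.000563).

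Rpl38 (ENSMUSG00000057322, chr11:114668524-114672331, plus strand), which in mouse embryos is needed for the translation of some Hox mRNAs, had 954, 1053 and 851 FPKM in Ctrl and 789, 682 and 536 in Ep2. The groups did not overlap (log2 fold change -0.52 ± 0.16, adjusted p = 0.0235), but the call was lost without Ctrl replicate 1, Ctrl replicate 2 or Ep2 replicate 3 (adjusted p up to 0.0760). It was also lost with voom on recovered fragments and with length and GC trends removed (adjusted p = 0.0503 and 0.0653). Rps27l (ENSMUSG00000036781, chr9:66946086-66949516, plus strand), a paralogue of Rps27 that p53 induces, had 211, 218 and 217 FPKM in Ctrl, 180.2, 219 and 201 in Ep1 and 143, 163 and 147 in Ep2. Its Ctrl values were tight and its Ep2 values lay clearly below them (log2 fold change -0.51 ± 0.07, adjusted p = 0.000332). Of the 20 named members called in this comparison, 14 kept their call under all 15 alternatives that could be run for them (14 for Rpl36al); Rplp0, Rpl3, Rpl36, Rpl38, Rps6 and Rpl9 did not.

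The up-regulated members at 20 J/cm2 numbered 3, each with a small change. Rpl23a (ENSMUSG00000058546, chr11:78180932-78183584, minus strand), which lies at the rim of the exit tunnel, where it contacts the signal recognition particle, had 629, 673 and 621 FPKM in Ctrl and 795, 761 and 734 in Ep2. No library overlapped (log2 fold change 0.25 ± 0.05, adjusted p = 0.00156). Rps6 (ENSMUSG00000028495, chr4:86854660-86857412, minus strand), the target of the S6 kinases, had 692, 729 and 718 FPKM in Ctrl and 758, 775 and 796 in Ep2. The lowest Ep2 library lay above the highest Ctrl library (log2 fold change 0.12 ± 0.04, adjusted p = 0.0193), and the call was lost without Ctrl replicate 1 or Ep2 replicate 2 (adjusted p up to 0.0802). Rpl9 (ENSMUSG00000047215, chr5:65388364-65391444, minus strand), a large subunit protein near the site where elongation factors bind, had 192, 196 and 187 FPKM in Ctrl and 213, 211 and 199.6 in Ep2. Its groups were close but did not overlap (log2 fold change 0.12 ± 0.04, adjusted p = 0.0337), and the call was lost without any one of Ctrl replicates 1 and 3 and Ep2 replicates 1 and 2 (adjusted p up to 0.1004), with no filter on low values or with only both groups compared (0.0624 and 0.0655).

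**Figure D3:**
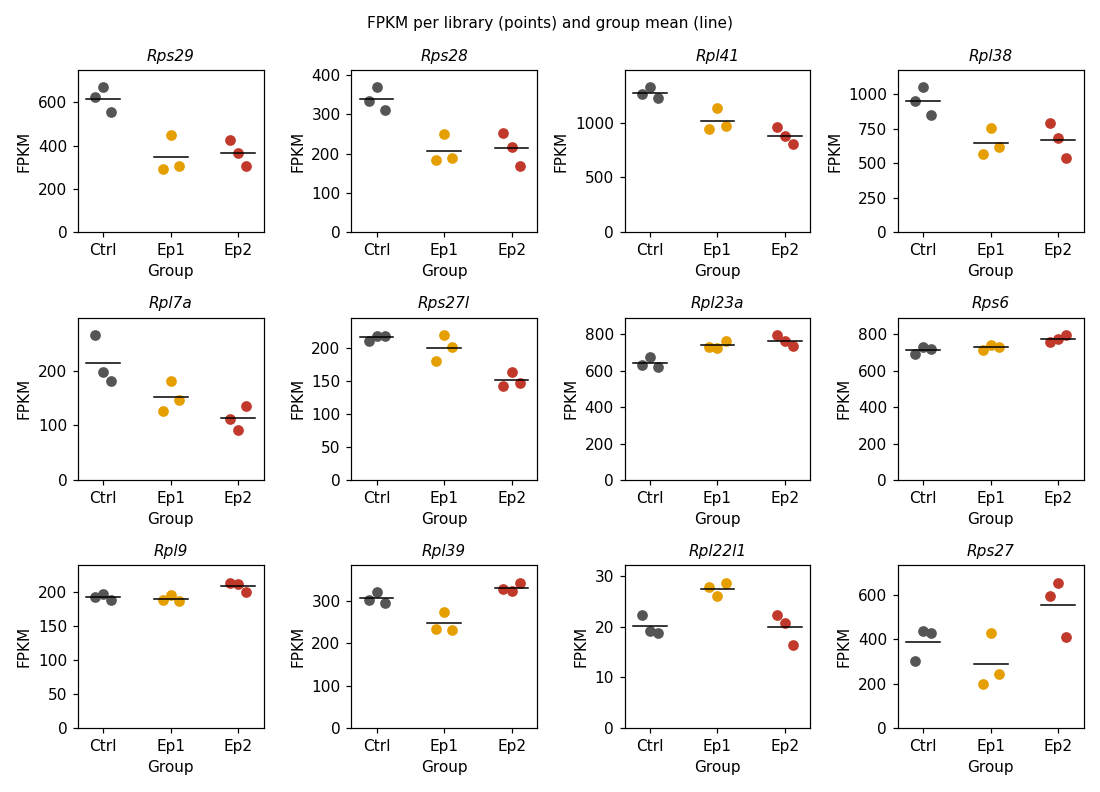
FPKM in each of 9 libraries (points) with group means (lines) for 12 members, on axes that start at 0. The points of Rps29, Rps28, Rpl41 and Rpl38 lie below Ctrl in both treated groups, those of Rps27l below Ctrl in Ep2, those of Rpl39 below and of Rpl22l1 above Ctrl in Ep1, and Rps27 spreads widely within groups.

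By place in the ribosome, the P stalk had all 3 of its members called lower in Ep2, beside 51.2% of all members. They are Rplp0, which anchors the stalk, and the acidic proteins Rplp1 and Rplp2, which recruit elongation factors and stimulate their GTPase activity. Rplp0 had 2027, 2096 and 1964 FPKM in Ctrl and 1717, 1727 and 1657 in Ep2 (log2 fold change -0.25 ± 0.04, adjusted p = 0.000635). Rplp1 had 3469, 3609.6 and 3526 FPKM in Ctrl and 3093, 2967 and 2514 in Ep2 (log2 fold change -0.31 ± 0.07, adjusted p = 0.00486). Rplp2 had 304, 320.3 and 281 FPKM in Ctrl and 258, 223 and 197 in Ep2 (log2 fold change -0.42 ± 0.09, adjusted p = 0.00307). In Ep1 only Rplp0 passed the test against Ctrl (adjusted p = 0.556 for Rplp1 and 0.439 for Rplp2). In Ep2 none of the 3 overlapped with Ctrl, and the call of Rplp0 was lost when length and GC trends were removed (adjusted p = 0.0535).

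Rpl5 and Rpl11 form a particle with the 5S rRNA that can also bind and inhibit MDM2, the ligase that degrades p53. Rpl11 had 321, 337 and 319 FPKM in Ctrl and 281, 261 and 219 in Ep2, and it fell without overlap (log2 fold change -0.37 ± 0.08, adjusted p = 0.00405). Rpl5 had 281, 294 and 296 FPKM in Ctrl and 286, 286 and 278 in Ep2. These ranges overlapped (log2 fold change -0.03 ± 0.04, adjusted p = 0.467). In Ep1, both lay below all Ctrl libraries. Rpl5 was called there (-0.13, adjusted p = 0.0472) and Rpl11 was not (-0.20, adjusted p = 0.143). Thus 1 of the 2 partners passed the test at each dose, and not the same one. The Ep1 call of Rpl5 was lost under 9 of 15 alternatives, among them the omission of any single Ctrl or Ep1 library. The difference between Rpl5 and Rpl11 was not tested.

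Lists by place or role are set beside the 29.3% of all tested genes that were lower in Ep2, the 23.9% that were higher, and the 51.2% of members that were lower. Of 8 proteins that line the exit tunnel or its rim, 1 rose (Rpl23a) and 1 fell (Rpl35, -0.23, adjusted p = 0.0162) in Ep2 (12.5% each), and their median log2 fold change was -0.02. In Ep1, Rpl23a rose and Rpl39 fell (12.5% each, against 6.32% and 4.97% of all tested genes). Of 7 proteins along the mRNA path of the small subunit, 5 fell in Ep2 (71.4%), among them Rps2, Rps3, Rps14 and Rps28, and none rose, with a median of -0.17. Rps14 and Rps28 were also among the 3 that fell in Ep1 (42.9%, against 4.97% of all tested genes and 15.5% of members). Rps2, at the entry of the mRNA, was at 1388 to 1424 FPKM in Ctrl, 1447 to 1485 in Ep1 and 1109 to 1286 in Ep2, where it was lower (-0.23, adjusted p = 0.00394). Of 9 genes known from Diamond-Blackfan anemia, 4 fell in Ep2 (44.4%, below the share of all members), among them Rps19, Rpl11 and Rpl35a, and none rose, with a median of -0.10. Rps19, the gene most often affected in that disease, was at 142 to 153 FPKM in Ctrl and 105 to 128 in Ep2 (-0.34, adjusted p = 0.00256). These lists share members with each other and were chosen with results of these data known, so the counts are descriptions.

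In Ep2, 4 of the 12 tested paralogues were lower (Rps27l, Rpl3, Rpl36al and Rpl7l1), a share of 33.3% that is near that of all tested genes, and none was higher. Differences within pairs were not tested. Rps27 had 299.9, 437 and 429 FPKM in Ctrl, 196, 426 and 242 in Ep1 and 596, 655 and 410.4 in Ep2. The Ep2 and Ctrl libraries overlapped (log2 fold change 0.50 ± 0.31, adjusted p = 0.209). Rpl7 had 409.5, 441 and 454 FPKM in Ctrl and 452, 471 and 468 in Ep2 (0.09, adjusted p = 0.111). Its paralogue Rpl7l1, which acts in ribosome assembly, had 89.4, 92.6 and 89.1 in Ctrl and 65.6, 76.6 and 74.5 in Ep2, where it was lower without overlap (log2 fold change -0.32 ± 0.06, adjusted p = 0.00234).

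Rpl36a, whose product lies at the exit site for tRNA, was at 189 to 207 FPKM in Ctrl and 150.4 to 182 in Ep2 (-0.20, adjusted p = 0.0644), and Rpl36al, counted at a far lower level, was at 2.07 to 2.53 in Ctrl and 0.935 to 1.70 in Ep2 (-0.50, adjusted p = 0.00805). Rpl3, which shapes the peptidyl transferase center, was at 494 to 519 FPKM in Ctrl and 414 to 450.2 in Ep2 and was lower (-0.22, adjusted p = 0.00234). That call was lost with length and GC trends removed (adjusted p = 0.118). Rpl10, which joins the large subunit late in its assembly, was at 512 to 541 and 532 to 537 FPKM (0.01, adjusted p = 0.789). Rps4x, a small subunit protein encoded on the X chromosome, was at 688 to 716 and 697 to 709.8 FPKM (adjusted p = 0.985). Its fitted difference was near 0 and turned to 0.11 with an adjusted p of 0.0244 when the trend on gene length was removed.

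Among the most abundant members, Rps3a1 had 1725, 1803 and 1864 FPKM in Ctrl and 1815, 1893 and 1879 in Ep2 (log2 fold change 0.05 ± 0.04, adjusted p = 0.294). Its groups overlapped. Rpl8 had 1536, 1578 and 1482 FPKM in Ctrl and 1321, 1211 and 1012 in Ep2, and it was lower without overlap (log2 fold change -0.38 ± 0.08, adjusted p = 0.00355). Rpl36 had 1631, 1832 and 1591 FPKM in Ctrl and 1513, 1312 and 1043 in Ep2 (log2 fold change -0.40 ± 0.13, adjusted p = 0.0282). The call of Rpl36 was lost without Ctrl replicate 1, Ctrl replicate 2 or Ep2 replicate 2 (adjusted p up to 0.0907), and with voom on the recovered fragments, with no filter and with length and GC trends removed (up to 0.113).

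At the lower light dose, fewer members passed the test. At 10 J/cm2, 13 of 84 members were lower (15.5%, against 4.97% of all tested genes) and 2 were higher (2.38%, against 6.32%). In either direction 15 were called, against 11.3% of all tested genes. The median log2 fold change was -0.11 over members, a median change in FPKM of -7.13%, and -0.01 over all tested genes. Large subunit members gave 8 lower and 2 higher calls with a median of -0.11, and small subunit members 5 lower and 0 higher calls with a median of -0.10. In 37 members all Ep1 libraries lay below all Ctrl libraries, as in 20.5% of all tested genes, and in 5 all lay above, as in 20.8%. At an unadjusted p below 0.05 in limma there were 35 members (41.7%), against 29.5% of all tested genes. Past the fold threshold for DEGs were Rps29 and Rps28, both lower (0.222% of all tested genes), and 0 members were higher (0.571%), where 0.793% of all tested genes passed in either direction.

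These counts at 10 J/cm2 rested on single libraries, and so did those over all tested genes. Leaving out a Ctrl library in turn gave 3 (replicate 1), 1 (replicate 2) and 9 (replicate 3) lower calls in place of 13. Of all tested genes, 1.32%, 0.665% and 3.91% were lower in these fits, in place of 4.97%. Leaving out an Ep1 library gave 2 (replicate 1), 16 (replicate 2) and 0 (replicate 3) lower calls. Of all tested genes, 1.37%, 3.25% and 0.682% were lower there. None of the 10 named members called at this dose kept its call under all alternatives, and each of the 10 lost it without Ctrl replicate 1, Ctrl replicate 2, Ep1 replicate 1 or Ep1 replicate 3. The medians of both subunits stayed below 0 in every such fit, between -0.13 and -0.07.

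Rps29 had 292, 451 and 305 FPKM in Ep1 (log2 fold change -0.84 ± 0.19, adjusted p = 0.0308) and Rps28 had 184, 251 and 188 (log2 fold change -0.71 ± 0.17, adjusted p = 0.0350). In both, every Ep1 library lay below the Ctrl range given above, and replicate 2 was the one nearest to it. Rpl37, a zinc-binding protein of the large subunit, had 456, 478 and 437 FPKM in Ctrl, 301, 381 and 325 in Ep1 and 361, 326 and 288 in Ep2. It was lower at both doses (Ep1 -0.45, adjusted p = 0.0266 and Ep2 -0.50, adjusted p = 0.00276). Rpl37a, also zinc-binding, had 365, 407 and 369 FPKM in Ctrl, 299, 333 and 303 in Ep1 and 327, 304 and 282 in Ep2. It too was lower at both doses (Ep1 -0.29, adjusted p = 0.0296 and Ep2 -0.32, adjusted p = 0.00311). Rpl41 had 939, 1132 and 967 FPKM in Ep1, below all its Ctrl libraries (log2 fold change -0.33 ± 0.08, adjusted p = 0.0355). Rplp0 at 1749 to 1859.8 FPKM (-0.18, adjusted p = 0.0269) and Rpl5 at 261 to 271 FPKM (-0.13, adjusted p = 0.0472) were lower as well. Rpl23a was higher, at 730.1, 721 and 764 FPKM (log2 fold change 0.20 ± 0.05, adjusted p = 0.0274).

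For Rpl39 and Rpl22l1, among other members, the order of the groups was not that of the light dose. Rpl5 had all Ep1 libraries below those of Ctrl and Ep2 (Ep2 against Ep1 0.10, adjusted p = 0.0517). So did Rpl26 and Rps15a, named after their values were seen. Both were higher in Ep2 than in Ep1 (0.14, adjusted p = 0.0222 and 0.12, adjusted p = 0.0341). The means of Rps27, Rps28, Rps29 and Rpl38 were also lowest in Ep1, but their Ep1 and Ep2 libraries overlapped. Between Ep2 and Ep1, Rps28 (0.03, adjusted p = 0.891), Rps29 (0.08, adjusted p = 0.764) and Rpl38 (0.04, adjusted p = 0.876) did not pass the test. Rps27 did (0.99, adjusted p = 0.0327). Rpl39, which lines the exit tunnel, had 302, 322 and 295 FPKM in Ctrl, 235, 275 and 232 in Ep1 and 328, 324 and 343 in Ep2. It was lower in Ep1 than in Ctrl (log2 fold change -0.31 ± 0.07, adjusted p = 0.0212), did not pass the test in Ep2 against Ctrl (0.12, adjusted p = 0.169) and was higher in Ep2 than in Ep1 (log2 fold change 0.43 ± 0.07, adjusted p = 0.000776). Rpl22l1, the paralogue of Rpl22, had 22.3, 19.1 and 18.8 FPKM in Ctrl, 27.9, 26.0 and 28.7 in Ep1 and 22.3, 20.8 and 16.4 in Ep2. Ep1 lay above both other groups without overlap (against Ctrl log2 fold change 0.44 ± 0.11, adjusted p = 0.0342; Ep2 against Ep1 -0.46, adjusted p = 0.00722). Rpl22 itself had 144, 154 and 152, 131, 145 and 134 and 146, 136 and 130.0 FPKM in the same order of groups, and neither dose passed the test against Ctrl (adjusted p = 0.149 and 0.0857). The comparisons of Ep2 with Ep1 for Rpl39 and Rpl22l1 kept their calls under all alternatives, while their calls in Ep1 against Ctrl did not.

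Between the light doses, 19 of 84 members were lower in Ep2 than in Ep1 (22.6%, against 25.2% of all tested genes) and 5 were higher (5.95%, against 18.8%), with 44.0% of all tested genes called in either direction. The share of lower calls was thus near the background. All Ep2 libraries lay below all Ep1 libraries in 22 members (30.3% of all tested genes) and above them in 8 (24.1%). The split depended on the scaling: with each library centred on its median, which moved the median of all genes by less than 0.1, 10 members were lower (11.9%, against 20.3% of all genes) and 11 higher (13.1%, against 25.4%), so the calls over all genes shifted too. It also depended on single libraries. Lower calls numbered 9 and 11 when Ep1 replicate 2 or 3 was left out (20.9% and 20.6% of all genes). They numbered 28 and 12 when Ep2 replicate 1 or 3 was left out (25.5% and 24% of all genes). Higher calls numbered 1 without Ep1 replicate 1 or Ep2 replicate 2 (16.9% and 16.3% of all genes). There were 2 without Ep1 replicate 3 (14.5%) and 3 without Ep2 replicate 1 (19%). Medians were -0.07 in the large and -0.03 in the small subunit, and the latter turned to 0.03 with median centring.

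Alternatives were read only for the 10 named members called between the doses, and 6 of these kept their calls under all that could be run. Calls of other members were not followed in this way. The 6 were Rps27l (-0.40, adjusted p = 0.00185), Rpl8 (-0.33, adjusted p = 0.00997), Rpl7l1 (-0.28, adjusted p = 0.00636) and Rpl36al (-0.59, adjusted p = 0.00452), all lower in Ep2, beside Rpl22l1 and Rpl39. In Rps27l, the Ep1 libraries at 180.2 to 219 FPKM lay above the Ep2 libraries at 143 to 163. In Rpl8, Ep1 at 1436 to 1503 FPKM lay above Ep2 at 1012 to 1321. Rps27 was the 1 member past the DEG threshold between the doses (log2 fold change 0.99 ± 0.31, adjusted p = 0.0327), where 5.9% of all tested genes passed, 1.94% as higher and 3.97% as lower. Its Ep1 library of replicate 2 overlapped the Ep2 range, and its call was lost without Ep1 replicate 1 or 3 or Ep2 replicate 1 or 2 (adjusted p up to 0.1004), and with no filter or with voom (0.0603 and 0.0513).

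Libraries of the same group were not equal in their ribosomal protein mRNA, and members moved together from library to library. Ctrl replicate 2 was the highest Ctrl library in 63 of 84 members (75%), against 32.9% of all tested genes. Ep1 replicate 1 was the lowest Ep1 library in 67 members (79.8%, against 37.2%), and Ep1 replicate 2 was the highest in 65 (77.4%, against 33%). Ep2 replicate 3 was the lowest Ep2 library in 67 members (79.8%, against 35.7%). The median log2 ratio of members to their Ctrl mean was -0.15, -0.04 and -0.11 in the Ep1 libraries and -0.11, -0.16 and -0.29 in the Ep2 libraries, and between -0.03 and 0.04 in the Ctrl libraries. Members are therefore not independent observations of the treatment, and 84 members do not add replicates to 3 libraries.

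Within groups, the coefficient of variation over 79 members with a mean of at least 10 FPKM had a median of 3.72% in Ctrl, 4.01% in Ep1 and 7.35% in Ep2. It passed 20% for Rpl7a and Rps27a in Ctrl, for Rpl17, Rpl21, Rps27 and Rps29 in Ep1, and for Rpl17, Rpl21, Rps27 and Rps27a in Ep2. Rpl17, Rpl21 and Rps27a were named after their values were seen. Rps27a, whose product is made as a fusion with ubiquitin, had 267, 291 and 470.2 FPKM in Ctrl, 510.4, 496 and 433 in Ep1 and 234, 441 and 477 in Ep2. Its libraries differed within Ctrl as much as between groups (0.14, adjusted p = 0.716 in Ep2 against Ctrl). Rpl17 had 551, 592 and 512 FPKM in Ctrl, 302, 326 and 475 in Ep1 and 589.7, 535 and 310.3 in Ep2. Ep2 replicate 3 lay among the Ep1 libraries and the other Ep2 libraries within the Ctrl range (-0.26, adjusted p = 0.434 in Ep2 against Ctrl). The spread of these members was far above that of most others, and its source was not tested.

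The change in Ep2 followed the base composition of the mRNA. Across 79 members with a mean of at least 10 FPKM, the log2 fold change in Ep2 against Ctrl and the GC content of the canonical transcript had a Pearson r of -0.39 and a Spearman rho of -0.48. With transcript length, r was 0.19 and rho 0.25. These values are across genes measured in the same libraries, and genes are not independent replicates. The GC relation was similar in the large (r = -0.41, 48 members) and the small subunit (r = -0.38, 31 members), and it was weaker in Ep1 (r = -0.23).

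Among tested genes that are not members, the median log2 fold change in Ep2 fell from each GC range to the next: it was 0.10 at a GC content up to 45%, 0.01 between 45% and 50%, -0.07 between 50% and 55%, and -0.16 above 55%. Members had medians of -0.18 (7 members), -0.05 (31 members), -0.26 (32 members) and -0.28 (14 members) in these ranges, below the other genes in each, and the members of the lowest range did not follow that order. In the range above 55%, 12 of 14 members fell (85.7%), against 43.4% of 2783 other genes. Between 45% and 50%, 7 of 31 members fell (22.6%), near the 24.4% of 3143 other genes, and 2 rose (6.45%, against 27.7%). Members also have short mRNAs, with a median of 1049 bases against 3081 bases for all tested genes. Of 16 members with mRNAs up to 600 bases, 10 fell (62.5%) and 1 rose (6.25%) in Ep2, with a median of -0.32. Of 816 other genes of this length, 112 fell (13.7%) and 66 rose (8.09%), with a median of -0.07. Levels were not matched in these contrasts: the median Ctrl mean was 383 FPKM for members and 7.84 FPKM for all tested genes. With a minimum of 5 FPKM, 46 of 82 members were lower in Ep2 (56.1%), against 37.3% of all genes, and 3 were higher (3.66%, against 26.9%). How far length, base composition or the making of the libraries enters the fall was not tested beyond the fits given above.

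**Figure D4:**
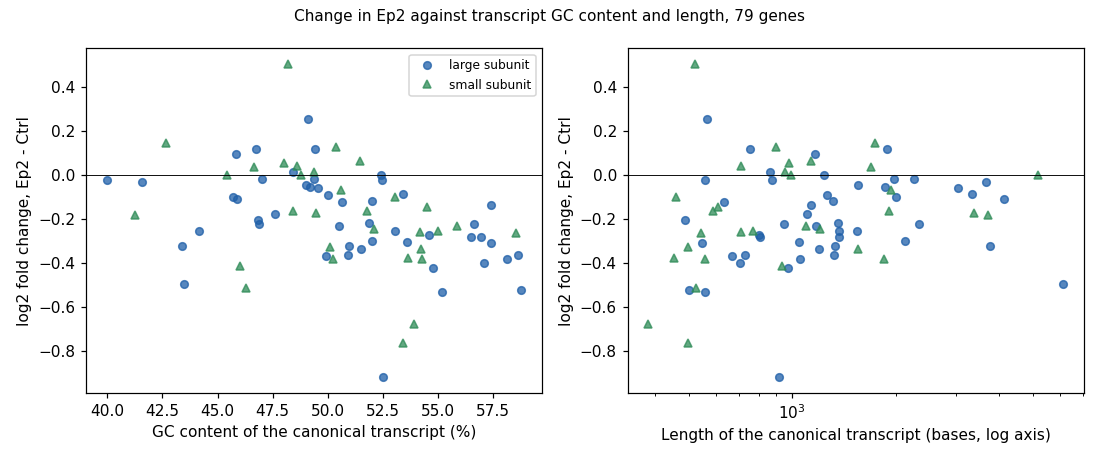
Log2 fold change in Ep2 against Ctrl of the 79 members with a mean of at least 10 FPKM, against GC content (left, percent) and length (right, bases, log axis) of the canonical transcript; circles are large and triangles small subunit members. Members of high GC content lie lower (r = -0.39), and length shows a weaker relation (r = 0.19).

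Genes close to the members in function were read from lists. Fau, which encodes a small subunit protein fused to a ubiquitin-like protein, and Rack1, a scaffold on the small subunit head, do not carry Rpl or Rps symbols, and both were lower in Ep2. Fau had 706, 739.9 and 675 FPKM in Ctrl and 635, 592 and 522 in Ep2, without overlap (log2 fold change -0.28 ± 0.07, adjusted p = 0.00640). Rack1 had 511, 527 and 516 FPKM in Ctrl and 458, 467 and 447 in Ep2, again without overlap (log2 fold change -0.18 ± 0.04, adjusted p = 0.00218). Rack1 was also lower in Ep1 (-0.18, adjusted p = 0.0178), where Fau did not pass the test (-0.12, adjusted p = 0.262).

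The other mRNAs known to begin with a TOP tract, mostly translation factors, were mixed in direction. Of 17 listed, 5 rose in Ep2 (Eef1a1, Pabpc1, Tpt1, Eif3e and Btf3), a share of 29.4%, against 23.9% of all tested genes. A further 4 fell (Npm1, Eif4b, Eef1b2 and Eef1d), a share of 23.5%, against 29.3%. Both shares were near the background, and the median log2 fold change was 0.08. Eef1a1, the factor that delivers tRNA, had 3869, 3967 and 3842 FPKM in Ctrl and 4091, 4132 and 4237 in Ep2 (log2 fold change 0.09 ± 0.03, adjusted p = 0.0359), a rise without overlap. Eef1d, which recharges that factor, had 56.7, 58.0 and 55.01 FPKM in Ctrl and 41.8, 41.0 and 37.7 in Ep2 (log2 fold change -0.48 ± 0.05, adjusted p = 3.81e-05), a fall without overlap. In Ep1, 3 rose (Nap1l1, Eif3e and Btf3), a share of 17.6%, against 6.32% of all tested genes. None fell, against 4.97%, and the median was 0.05. With 17 genes, these shares are descriptions only.

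Of 16 genes of the mTOR pathway and of TOP mRNA control, 5 were lower in Ep2 (31.2%, near the 29.3% of all tested genes) and 1 was higher (6.25%, against 23.9%), with a median of -0.13. Rheb, the activator of mTORC1, was higher (0.22, adjusted p = 0.0118). Mtor, its kinase, had 7.33, 7.36 and 6.82 FPKM in Ctrl and 5.97, 6.19 and 6.18 in Ep2, and it was lower without overlap (log2 fold change -0.20 ± 0.05, adjusted p = 0.00554). The others lower were the subunit Mlst8 (-0.26, adjusted p = 0.0126), and Akt1s1, Tsc2 and Sesn1, which restrain mTORC1 (-0.29, adjusted p = 0.00165; -0.32, adjusted p = 0.00134; -0.41, adjusted p = 0.000976). Larp1, which binds TOP tracts, was at 93.2 to 98.3 FPKM in Ctrl and 87.3 to 99.7 in Ep2 (-0.04, adjusted p = 0.524). In Ep1, Mtor alone passed the test (-0.17, adjusted p = 0.0454). These are RNA levels, and the activity of the pathway was not measured.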

How the data were processed

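Members and gene lists were chosen with earlier results of these data known. The authors sequenced the libraries as paired-end reads and deposited 1 FPKM value per gene and library, in a joint table and in 9 single tables that hold equal values. The deposited gene length, in bases, was used to recover fragments: FPKM times length was a whole multiple of 1 step per library, within 0.05, for 100% of values above 0. The total behind the deposited FPKM was 0.995 to 1.03 times the recovered total. The submitters' processing notes name Bowtie 0.12.2 and build mm8 and the study's methods name GRCm39, whereas the listed coordinates overlapped the GRCm38 position in 99.88% of 36520 genes and the GRCm39 position in 12.37%, so positions here are GRCm38. The tool that counted fragments, and whether strand was used, are not given in the sources used here. No columns of samples were left unused (0), and fold changes of the authors were not among the deposited columns.

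From the FPKM values, log2(FPKM + 1) of the 11727 genes that reached 1 FPKM in 3 or more libraries was fitted in 1 linear model over all 9 libraries with limma 3.58.1 in R 4.3.3 (lmFit, eBayes with trend and robust, no covariate). Every p-value is from that moderated test, two-sided, with Benjamini-Hochberg adjustment over all tested genes within a comparison, and fold changes are on the log2(FPKM + 1) scale, which understates the change of low genes. A gene was called at an adjusted p below 0.05, and a DEG also needed an absolute log2 fold change above 0.6. The procedure was tested on simulated data. Comparisons were Ep1 and Ep2 with Ctrl, which share the Ctrl libraries, and Ep2 with Ep1. Alternative settings were centring on the library median, dropping the filter, a minimum of 5 FPKM, a smaller pseudocount (0.1), the replicate number as a block, separate fits for each pair of groups, removal of a gene length trend, voom on recovered fragments, the omission of each replicate and, chosen after seeing the data, removal of trends on the length and GC content of the GENCODE canonical transcript. Named members are those of the P stalk, the 5S particle and the paralogue pairs, the 5 highest and 5 lowest in Ctrl, and in each comparison with Ctrl the 6 called members with the largest rise and fall at a mean of at least 10 FPKM. Of other lists, called members may be named, and any further name is marked in the text. Promoters are from RefSeq. Python 3.11.15, numpy 2.4.6, pandas 2.3.3 and matplotlib 3.10.9 were used. The other assays of the study were not analysed here, and some genes are not reported here by name.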

Additional observations from a re-analysis of the deposited data

How the results depend on the processing

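The medians of both subunits against Ctrl kept their direction under every alternative, while counts of calls did not always hold. Percents in brackets after calls are the shares of all genes in the same fit called in that direction. With no filter, 26717 genes were fitted, and with voom 14112. In Ep2 against Ctrl, the 43 lower calls (29.3%) became 46 with a minimum of 5 FPKM (37.3%). They became 26 with length and GC trends of the mRNA removed (26.2%). They lay between 32 and 49 when each replicate was left out (25.6% to 30.1%). The 3 higher calls (23.9%) became 11 with the gene length trend removed (26.4%) and 14 with length and GC trends removed (26.4%). With a replicate left out they numbered 1 to 3 (20.1% to 24.8%). The medians ranged from -0.26 to -0.14 (large subunit) and -0.21 to -0.12 (small subunit) when each replicate was left out, and they moved to -0.13 and -0.10 (large subunit) and -0.073 and -0.060 (small subunit) with the length trend and with length and GC trends removed. In Ep1 against Ctrl, the 13 lower calls (4.97%) became 2 with no filter (0.576%). They became 20 with only the groups compared (8.6%) and 24 with voom (7.57%). With a replicate left out they numbered 0 to 16 (0.665% to 3.91%). The 2 higher calls (6.32%) became 0 with no filter (0.906%) and 0 to 1 with a replicate left out (0.947% to 4.9%). The large subunit median moved to -0.039 with length and GC trends removed; with a replicate left out it ranged from -0.13 to -0.07, as did that of the small subunit. In Ep2 against Ep1, the 19 lower calls (25.2%) became 10 with median centring (20.3%) and with no filter (9.35%). They became 12 with only the groups compared (22.9%) and with the length trend removed (22.6%). A replicate left out gave 9 to 28 (20.6% to 25.5%). The 5 higher calls (18.8%) became 11 with median centring (25.4%) and with the length trend removed (21.8%). They became 2 with no filter (7.4%), 3 with only the groups compared (16.6%) and 8 with voom (22%). Removal of length and GC trends gave 12 (22.7%), and a replicate left out gave 1 to 5 (14.3% to 19%). The small subunit median, -0.03, was reversed to 0.028 with median centring, 0.015 with the length trend removed, 0.0066 with voom and 0.032 with length and GC trends removed, and ranged from -0.066 to 0.0058 with a replicate left out; the large subunit median ranged from -0.12 to -0.03. Rps4x in Ep2 against Ctrl was reversed to 0.11 and 0.087 with the length trend and with length and GC trends removed. Without mitochondrial genes the share of members was 14.5% in Ctrl, 13.2% in Ep1 and 13.4% in Ep2, and as a percent of fragments 7.10%, 6.51% and 6.37%; with a replicate left out the group means ranged from 13.6% to 13.9%, 12.4% to 12.7% and 12.3% to 12.9%. Replicate numbers did not pair the libraries: deviations of same-numbered libraries from their group means correlated between -0.06 and 0.07. With the replicate block, calls were 41 lower and 3 higher in Ep2 against Ctrl (28.9% and 23.2%). They were 12 and 1 in Ep1 against Ctrl (4% and 4.96%), and 19 and 5 in Ep2 against Ep1 (24.5% and 18%). The causes of these changes were not tested. At 3 libraries per group, 1 library can decide a call, above all at 10 J/cm2, and for members at 0 to 6 fragments no difference was detectable at this depth.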

Other observations

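Beside the members, 298 listed genes carry ribosomal protein symbols that end in -ps, the mark of a pseudogene, and 88 of them passed the filter on low values. Their FPKM summed to 4495 ± 230 (SD, n = 3) in Ctrl, 4446 ± 121 in Ep1 and 4317 ± 62.4 in Ep2, and the groups overlapped. In Ep2 against Ctrl, 12 of 88 were lower (13.6%, against 29.3% of all tested genes) and 2 higher (2.27%, against 23.9%), with a median log2 fold change of -0.17, and in Ep1 against Ctrl 3 were lower and 3 higher (3.41% each, against 4.97% and 6.32%), with a median of -0.07. Fragments from the parent mRNA and from such copies cannot be told apart in these values.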
